A study of Homo sapiens with 6 samples.

Results

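The 10 genes described here encode the inhibitors of the cyclin-dependent kinases (CDKs) and the retinoblastoma family. They are CDKN1A, CDKN1B and CDKN1C of the CIP/KIP class, CDKN2A, CDKN2B, CDKN2C and CDKN2D of the INK4 class, and the pocket proteins RB1, RBL1 and RBL2. They were chosen by name, with no measured value in the rule, and are 10 of the 23459 genes in the count table. Earlier results of these data were known when they and the gene lists used below were chosen. The comparison asks what depletion of YAP and TAZ, the coactivators that the Hippo pathway restrains, does to their transcripts. Both groups were MCF10A cells labelled WT, an untransformed mammary epithelial line, grown in medium with serum, insulin, hydrocortisone, cholera toxin and EGF and transfected with 20 nM siRNA. The siCtrl group (3 libraries) received a non-targeting siRNA and the siYAP/TAZ group (3 libraries) received siRNA against YAP and TAZ, the product of WWTR1. The time after transfection is not given in the sources used here, and a single line with partial depletion limits what the model covers.

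The labels of 2 libraries conflict: by its title, siCtrl replicate 2 would be siYAP/TAZ and siYAP/TAZ replicate 2 would be a control, and here the column names of the count table set the groups. The targeted genes separated the groups in that order. YAP1 stood at 189, 204 and 210 CPM (TMM-normalised counts, scaled to a common library size) in siCtrl replicates 1, 2 and 3 and at 116.5, 118 and 112 CPM in siYAP/TAZ, and WWTR1 at 109, 109 and 102 against 70.5, 67.1 and 59.8 CPM. Library totals ran from 3175149 to 4317286 counts. The summed level of 10 basal mammary markers was 3485 to 4000 CPM in siCtrl and 2534 to 2931 CPM in siYAP/TAZ, with 0 of the 10 past the test. The 8 luminal markers summed to 147 to 172 CPM with ELF5 at 0. Fibroblast markers summed to 163 to 213 CPM, mostly PDGFRA, with COL1A2 and COL3A1 at 0, and leukocyte markers to 4.08 to 12.0 CPM. The 4 endothelial markers summed to 2.26 to 4.01 CPM in siCtrl and 5.67 to 12.9 CPM in siYAP/TAZ. From siCtrl to siYAP/TAZ, mean PECAM1 went from 1.32 to 5.88 CPM and mean KDR from 0.481 to 1.85 CPM. CDH5 (0.301 and 0.276 CPM) and VWF (1.23 and 1.26 CPM) did not move with the groups. The part of these markers in the results was not tested. siCtrl replicate 2 stood apart from the other controls in its replication genes. Over all genes its chi-square per degree of freedom was 17.4 and 14.1 with the other controls against 8.57 with siYAP/TAZ replicate 2. Results that turn on this library are given with and without it. It was set apart by these same data, so calls made without it are no separate support.

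In textbook terms, cyclin D bound to CDK4 or CDK6 and cyclin E bound to CDK2 phosphorylate the pocket proteins, which releases E2F factors and lets the genes of DNA replication be transcribed. INK4 proteins bind CDK4 and CDK6 alone, whereas CIP/KIP proteins bind cyclin-CDK complexes, CDK2 complexes above all. RB1 binds mainly the activating E2Fs. RBL1 (p107) and RBL2 (p130) bind E2F4 and E2F5 and, with the MuvB core, form the DREAM complex that silences cell cycle genes in resting cells. In mammary epithelium these proteins translate contact, growth factor withdrawal and TGF-beta signals into arrest in G1.

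Of the 10 members, 8 passed the low-count filter, and 0 of them passed an adjusted p of 0.05 in edgeR's quasi-likelihood test in either direction. Over all 12510 genes tested, 1.96% passed, 0.743% higher and 1.22% lower in siYAP/TAZ. At an unadjusted p under 0.05, 1 of the 8 was higher, CDKN1C, beside 8.40% of all genes, and DESeq2, which called 1.89% of genes higher, called the same member. The median log2 fold change of the 8 was -0.028, beside -0.00093 for all genes tested. These fits did not model the replicate number. With it as a block, edgeR called CDKN1C higher (adjusted p = 0.0151) and no other member. That fit called 4.66% of genes higher and 5.44% lower. In these bulk libraries a changed level per cell and a changed share of cells cannot be told apart.

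**Figure D1:**
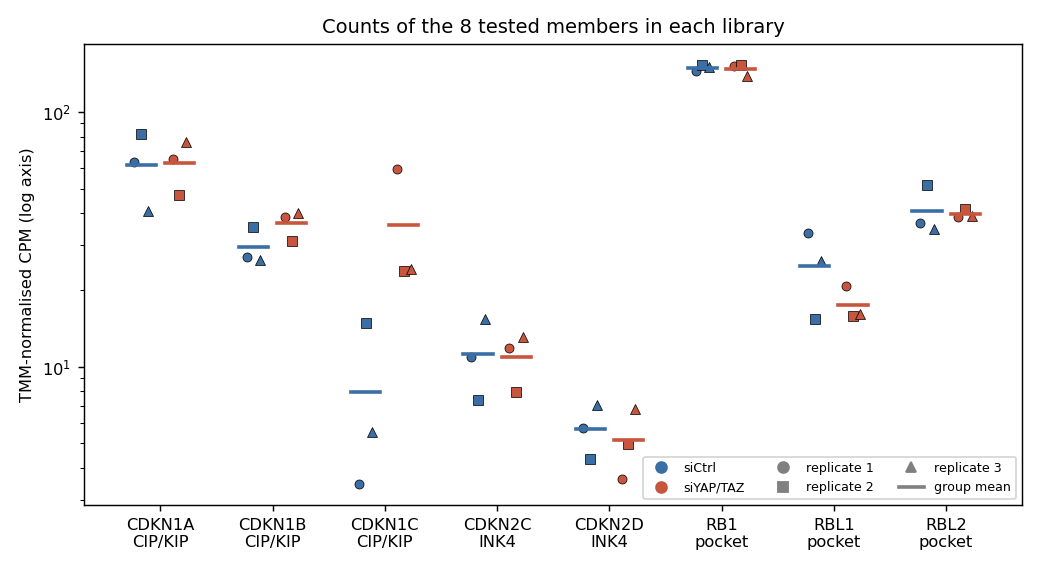
Level of the 8 tested members in each library, in TMM-normalised CPM on a log axis; each point is 1 library, with colours for the group and symbol shapes for the replicate, and bars are group means. CDKN1C is the member whose 2 groups do not overlap, with 3.45 to 14.8 CPM in siCtrl and 23.8 to 59.8 CPM in siYAP/TAZ.

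In the control cells the members spanned a wide range of levels. The 3′ kit reads 1 end of each transcript, so CPM needs no length term where the reads come from that end. How reads were assigned to genes, and whether by strand, is not given. Reads from overlapping genes, such as LPAR6 inside RB1, may be included, and the order of the members carries that limit. RB1 was the most abundant member at 149 ± 4.45 CPM (SD, n = 3), above 94.4% of the 23459 genes in the table, and exceeded each other member in each of the 6 libraries. CDKN1A followed at 62.0 ± 20.6 CPM, then RBL2 at 40.9 ± 9.26, CDKN1B at 29.4 ± 4.99 and RBL1 at 24.9 ± 8.99 CPM. CDKN1A and RBL2 overlapped between libraries, as did RBL2 with CDKN1B and CDKN1B with RBL1, so their order was within the spread. CDKN2C at 11.2 ± 3.97, CDKN1C at 7.93 ± 6.05 and CDKN2D at 5.70 ± 1.36 CPM were the lowest. CDKN1C overlapped with both of the others, and each CDKN2C library lay above each CDKN2D library. CDKN2A and CDKN2B had no counts.

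CDKN1C (Entrez 1028, chr11:2904443-2907005 on the minus strand, GRCh37) encodes p57, a CIP/KIP inhibitor transcribed from an imprinted cluster. It had 12, 48 and 22 counts in siCtrl replicates 1, 2 and 3 against 264, 72 and 89 in the siYAP/TAZ libraries. These were 3.45, 14.8 and 5.53 CPM against 59.8, 23.8 and 24.2 CPM. Each siYAP/TAZ library lay above each siCtrl library, a pattern that 11.0% of all genes tested showed in this direction and 11.1% in the other. The highest control was siCtrl replicate 2 and the highest of all was siYAP/TAZ replicate 1. The fitted log2 fold change was 2.21 (SE 0.52), 4.64-fold with a 95% interval from 2.05 to 10.5, and its adjusted p of 0.0680 missed the threshold in edgeR's test.

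The call on CDKN1C was not the same under each alternative. Same-numbered libraries deviated together, and with the replicate number as a block the log2 fold change was 2.16 (SE 0.46) with an adjusted p of 0.0151. That fit called 4.66% of genes higher and 5.44% lower. DESeq2 gave 2.19 with an adjusted p of 0.000336, and edgeR without the low-count filter, which called 1.34% of genes higher, 2.21 with 0.00675. Without siCtrl replicate 2 the value was 3.00 (SE 0.48, adjusted p = 0.00399), in a fit that called 6.08% of genes higher and 6.22% lower. That library was the highest control for CDKN1C, so leaving it out enlarges the rise by that choice, and this call is no separate support. Without siYAP/TAZ replicate 1 the log2 fold change was 1.61. The adjusted p was 0.108 to 0.282 when any one of the 5 libraries other than siCtrl replicate 2 was left out. The direction was higher in siYAP/TAZ under each alternative run, with log2 fold changes from 1.61 to 3.22. The 3.22 came from the fit without both libraries whose titles conflict, which also left out siCtrl replicate 2.

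CDKN1A (Entrez 1026, chr6:36644237-36655114, plus strand) encodes p21, the CIP/KIP inhibitor that p53 induces. Its counts were 221, 265 and 162 in the siCtrl libraries against 287, 143 and 279 after YAP/TAZ depletion, or 63.5, 81.8 and 40.7 CPM against 65.0, 47.3 and 75.9 CPM. The groups overlapped throughout, and the spread among the controls exceeded the distance between the means of 62.0 ± 20.6 and 62.7 ± 14.4 CPM (SD, n = 3 each). The log2 fold change was 0.025 (SE 0.26, adjusted p = 0.972) with a 95% interval from -0.55 to 0.60.

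CDKN1B (Entrez 1027, chr12:12838432-12875303, plus strand) encodes p27, the inhibitor held high in resting cells and removed by the ligase that contains SKP2. Its counts were 94, 114 and 104 in the siCtrl libraries against 171, 94 and 148 after depletion, or 27.0, 35.2 and 26.1 CPM against 38.8, 31.1 and 40.3 CPM. siYAP/TAZ replicates 1 and 3 exceeded each control, and siYAP/TAZ replicate 2 lay within the control range. The log2 fold change of 0.32 (SE 0.19, adjusted p = 0.399) had an interval from -0.092 to 0.74, so a rise of that size was not resolved. The opposite-strand gene GPR19, which overlaps the 5′ side of CDKN1B and was looked up after the values were seen, had 16 to 57 counts a library.

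**Figure D2:**
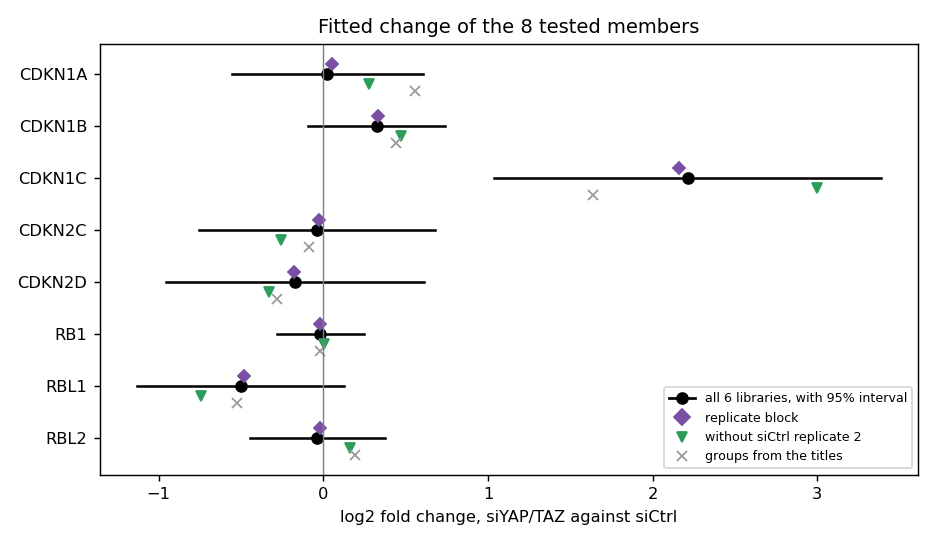
Fitted log2 fold change of the 8 tested members, siYAP/TAZ against siCtrl, with black points and bars for the reported fit and its 95% interval, diamonds for the replicate block, triangles for the fit without siCtrl replicate 2 and crosses for the groups of the titles. The interval of CDKN1C runs from 1.04 to 3.39, and each of the other 7 intervals includes 0.

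Within the CIP/KIP class, CDKN1C made up a larger part of the transcripts in each siYAP/TAZ library than in each control. A share of this kind is taken within a library and does not depend on scaling. CDKN1C held 3.67% (exact binomial 95% interval 1.91 to 6.32), 11.2% (8.41 to 14.6) and 7.64% (4.85 to 11.3) of the class counts in siCtrl. It held 36.6% (33.04 to 40.2), 23.3% (18.7 to 28.4) and 17.2% (14.1 to 20.8) in siYAP/TAZ. The intervals are for counting error only and leave out the spread between libraries. No molecular identifiers are described for the reads, so repeated reads of 1 molecule could make even the counting error larger than these intervals. The lowest siYAP/TAZ share and the highest siCtrl share, that of siCtrl replicate 2, had overlapping intervals. CDKN1A held 67.6%, 62.1% and 56.3% in siCtrl against 39.8%, 46.3% and 54.1% in siYAP/TAZ, and CDKN1B between 23.7% and 36.1% in all 6 libraries. Shares within a class depend on each other, so the lower CDKN1A share is no separate result. The mean level of CDKN1A itself was 62.0 CPM in siCtrl and 62.7 CPM in siYAP/TAZ. Per CDKN1B count there were 0.128, 0.421 and 0.212 CDKN1C counts in siCtrl against 1.54, 0.766 and 0.601 in siYAP/TAZ. The summed class level was 93.9, 132 and 72.4 CPM in siCtrl against 164, 102 and 140 CPM, and the groups overlapped.

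**Figure D3:**
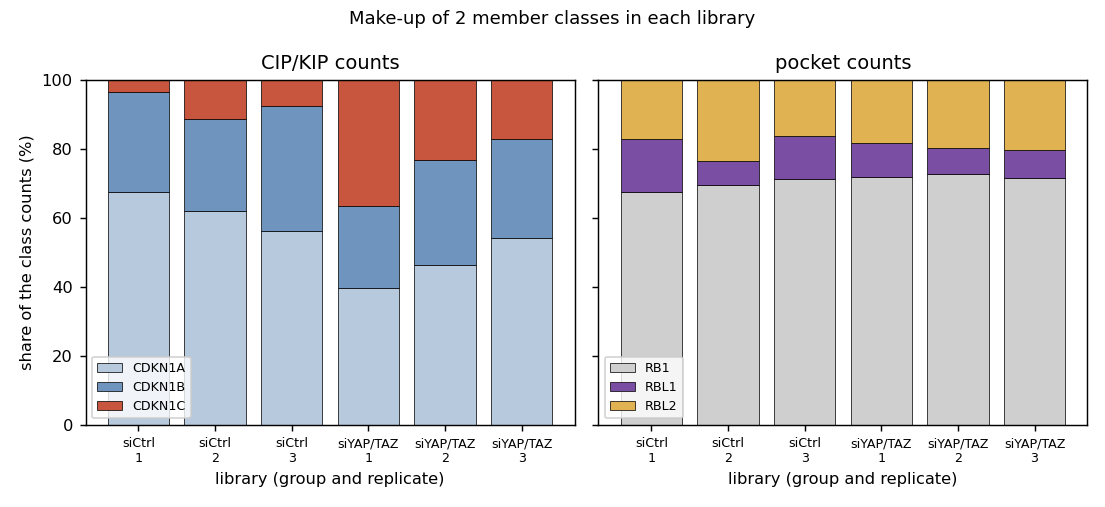
Share of the counts of the CIP/KIP class and of the pocket proteins held by each gene in each of the 6 libraries, in percent, with 1 stacked column per library. The CDKN1C part of the CIP/KIP column is 3.67% to 11.2% in siCtrl and 17.2% to 36.6% in siYAP/TAZ, whereas RB1 holds 67.4% to 72.6% of the pocket counts in each library.

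CDKN2A (Entrez 1029, chr9:21967751-21995300, minus strand) encodes p16 and, from another first exon and another reading frame, ARF. CDKN2B (Entrez 1030, chr9:22002902-22009304, minus strand) encodes p15, an INK4 protein that TGF-beta induces. Both had 0 counts in all 6 libraries and could not be tested. Of the 21858230 counts in the libraries together, a count of 0 allows up to 3, or 0.137 CPM for each gene. The exons that p16 and ARF share lie at the 3′ side of CDKN2A, so neither product could be told from the other by this kit. As background, MCF10A is known to lack this locus. The counts themselves do not read DNA.

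The neighbours of CDKN2A and CDKN2B on chromosome 9, taken in chromosomal order, bracketed a stretch of low counts. The group from IFNE through MTAP, CDKN2A, CDKN2B-AS1 and CDKN2B to DMRTA1 never exceeded 13 counts in a library. Summed over the 6 libraries, IFNE, an interferon gene, had 24 counts, MTAP, a methionine salvage enzyme, 58, CDKN2B-AS1, the antisense RNA of the locus, 35 and DMRTA1 2. KLHL9 on one side had 394 and ELAVL2 on the other 724. Farther out, MLLT3 had 1191, FOCAD 2361, HACD4 42 and IFNB1 0 on the side of KLHL9, and TUSC1 had 785, CAAP1 1280, PLAA 762 and IFT74 1017 on the side of ELAVL2. Low counts were thus also present outside the stretch, in HACD4 and IFNB1. CDKN2B-AS1 overlaps CDKN2A and CDKN2B on the opposite strand and had 4 to 9 counts a library. Of 16 genes on the list, which holds both members, 9 were tested and 0 passed in edgeR's test. ELAVL2, an RNA-binding protein, was the 1 gene with an unadjusted p under 0.05 (log2 fold change -1.08, SE 0.24, adjusted p = 0.0566), and DESeq2 and the fit with the replicate block called it lower. At that unadjusted p, 1160 of the 12510 genes tested were lower.

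**Figure D4:**
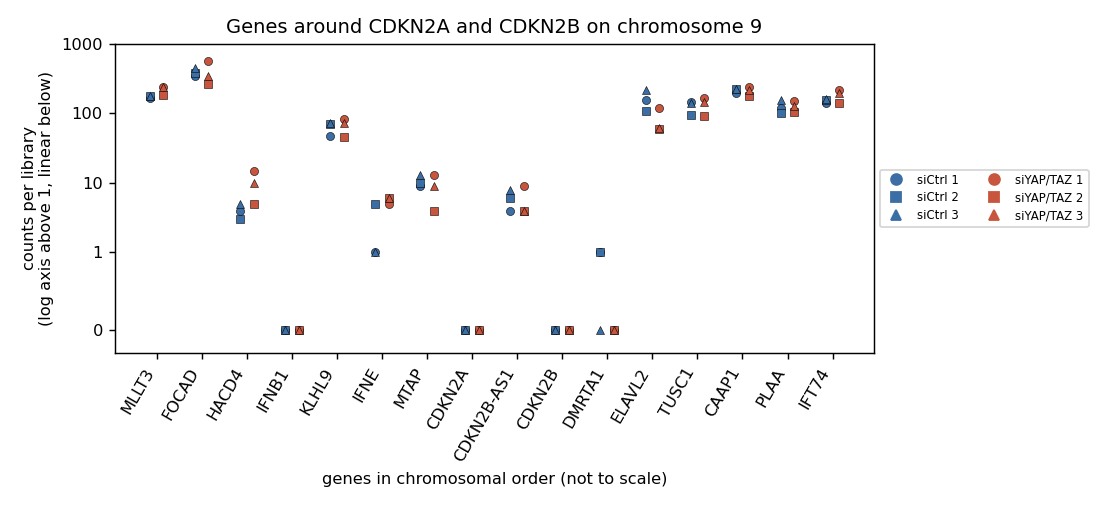
Counts per library of 16 genes around CDKN2A and CDKN2B in chromosomal order, on an axis that is logarithmic above 1 and linear below; each point is 1 library. CDKN2A and CDKN2B lie at 0 in all 6 libraries, and MTAP and CDKN2B-AS1 beside them at 4 to 13.

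CDKN2C (Entrez 1031, chr1:51426417-51440306, plus strand) encodes p18 and CDKN2D (Entrez 1032, chr19:10677136-10679735, minus strand) p19, the INK4 proteins that oscillate with the cell cycle. CDKN2C counts were 38, 24 and 61 in the siCtrl libraries against 52, 24 and 48 after YAP/TAZ depletion, or 10.9, 7.41 and 15.3 CPM against 11.8, 7.93 and 13.1 CPM. CDKN2D counts were 20, 14 and 28 in the siCtrl libraries against 16, 15 and 25 after YAP/TAZ depletion, or 5.74, 4.32 and 7.04 CPM against 3.63, 4.96 and 6.80 CPM. Both groups overlapped for both genes. The log2 fold change was -0.038 (SE 0.32, adjusted p = 0.965) for CDKN2C and -0.17 (SE 0.35, adjusted p = 0.841) for CDKN2D. The intervals were wide, from -0.75 to 0.68 and from -0.95 to 0.61. CDKN2C held 61.5% to 76.5% of the INK4 counts, with the highest share in siYAP/TAZ replicate 1 and the lowest in siYAP/TAZ replicate 2.

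RB1 (Entrez 5925, chr13:48877880-49173572, plus strand) was the steadiest member. Its counts were 502, 495 and 599 in the siCtrl libraries against 668, 462 and 507 after YAP/TAZ depletion, or 144, 153 and 151 CPM against 151, 153 and 138 CPM. The log2 fold change was -0.018 (SE 0.12, adjusted p = 0.955), and the 95% interval from -0.28 to 0.25 was the narrowest among the 8 members. The counts of LPAR6, an opposite-strand gene nested in RB1, were 143, 137 and 168 in the siCtrl libraries against 240, 134 and 154 after YAP/TAZ depletion, and was looked up after the values were seen. With its counts taken off, RB1 had 359, 358 and 431 counts against 428, 328 and 353, and the fitted log2 change was -0.096 (SE 0.12, adjusted p = 0.732).

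RBL1 and RBL2 are shown with their promoters because promoters of cell cycle genes often carry E2F words or CHR words, the elements read by E2F factors and by MuvB. Windows of 300 bases, from 250 before to 50 after each annotated start, were available from RefSeq (GRCh38.p14) for 9 of the 10 members, all but CDKN1C, as 13 windows. The letters searched on both strands were TTTGGCGC, TTTCCCGC, TTTGCCGC and TTTCGCGC for E2F and TTTGAA and TTCGAA for the CHR. E2F words occur in 3.31% of 35116 windows and CHR words in 16.4%. The window of RB1 lies at an internal start, so the first promoter of this gene was not searched. The CDKN1A window covers an annotated start inside the gene span, and a promoter at the outermost annotated start was not searched. Among the windows searched, only that of RBL1 held E2F words, TTTCGCGC and TTTGGCGC, starting 26 and 16 bases before the start. Only RBL2 held a CHR word, starting 24 bases after it. The words are in capitals, read 5′ to 3′ along the gene.
RBL1 (GRCh38.p14, chr20:37095948-37096247, minus strand): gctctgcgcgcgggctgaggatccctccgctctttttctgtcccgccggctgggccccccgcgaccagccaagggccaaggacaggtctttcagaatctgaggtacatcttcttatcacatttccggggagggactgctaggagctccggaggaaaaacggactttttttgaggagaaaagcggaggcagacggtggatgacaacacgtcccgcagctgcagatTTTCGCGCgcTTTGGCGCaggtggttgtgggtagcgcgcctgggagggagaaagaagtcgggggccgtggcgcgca
RBL2 (GRCh38.p14, chr16:53434221-53434520, plus strand): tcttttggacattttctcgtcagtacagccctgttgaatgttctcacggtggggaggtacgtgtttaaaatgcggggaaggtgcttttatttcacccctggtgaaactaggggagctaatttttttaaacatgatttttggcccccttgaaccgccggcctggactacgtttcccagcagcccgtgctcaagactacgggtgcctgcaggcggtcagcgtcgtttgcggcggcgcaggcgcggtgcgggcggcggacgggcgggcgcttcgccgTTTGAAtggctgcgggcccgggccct
The TEAD word GGAATG, which 14% of windows hold, was present in windows of CDKN2B and CDKN2C, and the AP-1 word TGACTCA (4.95% of windows) in none of the 13. The letters alone do not show binding.

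RBL1 (Entrez 5933, chr20:35624752-35724400 in GRCh37, minus strand) encodes p107, and its counts were 116, 50 and 103 in the siCtrl libraries against 91, 48 and 59 after YAP/TAZ depletion. This was 33.3, 15.4 and 25.9 CPM against 20.6, 15.9 and 16.0 CPM. siCtrl replicate 2 was the lowest library of all, and the other controls were above each siYAP/TAZ library. The log2 fold change was -0.50 (SE 0.28, adjusted p = 0.384), with an interval from -1.13 to 0.13. With the replicate block it was -0.48 (adjusted p = 0.179). Without siCtrl replicate 2 it was -0.74 (SE 0.21, adjusted p = 0.0470), which made RBL1 the 1 member called lower, in the fit that called 6.22% of genes lower. That library had been set apart by its replication genes, which RBL1 followed over the 6 libraries (r = 0.961). Leaving it out thus enlarges the fall of RBL1 by that choice, and the call is no separate support.

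RBL2 (Entrez 5934, chr16:53467889-53525560, plus strand) encodes p130, and its counts were 127, 167 and 138 in the siCtrl libraries against 170, 126 and 144 after YAP/TAZ depletion, or 36.5, 51.5 and 34.7 CPM against 38.5, 41.6 and 39.2 CPM. The siYAP/TAZ libraries all lay inside the range of the controls. The log2 fold change was -0.038 (SE 0.18, adjusted p = 0.937), with an interval from -0.45 to 0.37, and it was 0.16 without siCtrl replicate 2. AKTIP, which meets RBL2 end to end on the opposite strand and was looked up after the values were seen, had 50 to 88 counts a library and was also highest in siCtrl replicate 2. The ratio of RBL1 to RBL2 counts was 0.913, 0.299 and 0.746 in siCtrl against 0.535, 0.381 and 0.410 in siYAP/TAZ. siCtrl replicate 2 had the lowest ratio, and the other controls the highest. The summed pocket level was 211 to 220 CPM in siCtrl and 193 to 211 CPM in siYAP/TAZ.

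RBL1 and RBL2 varied in opposite directions along the replication genes. The level of 19 E2F-controlled G1/S genes, as a mean log2 difference from the siCtrl mean, was 0.50, -0.86 and 0.36 in siCtrl replicates 1, 2 and 3. It was -0.19, -0.96 and -0.55 in siYAP/TAZ. siCtrl replicate 2 thus sat among the siYAP/TAZ libraries. Over the 6 libraries, Pearson's r of a member's log2 CPM with this level was 0.961 for RBL1, 0.706 for CDKN2C and 0.387 for CDKN2D. It was -0.782 for RBL2, -0.639 for CDKN1C and -0.606 for CDKN1B. These are descriptions over points that share scaling and, within a group, treatment. RBL2 counts may include reads of AKTIP, which was also highest in siCtrl replicate 2, and no r was taken without them. With the level of the DREAM-controlled G2/M genes described below, r was 0.719 for RBL1 and -0.169 for RBL2.

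**Figure D5:**
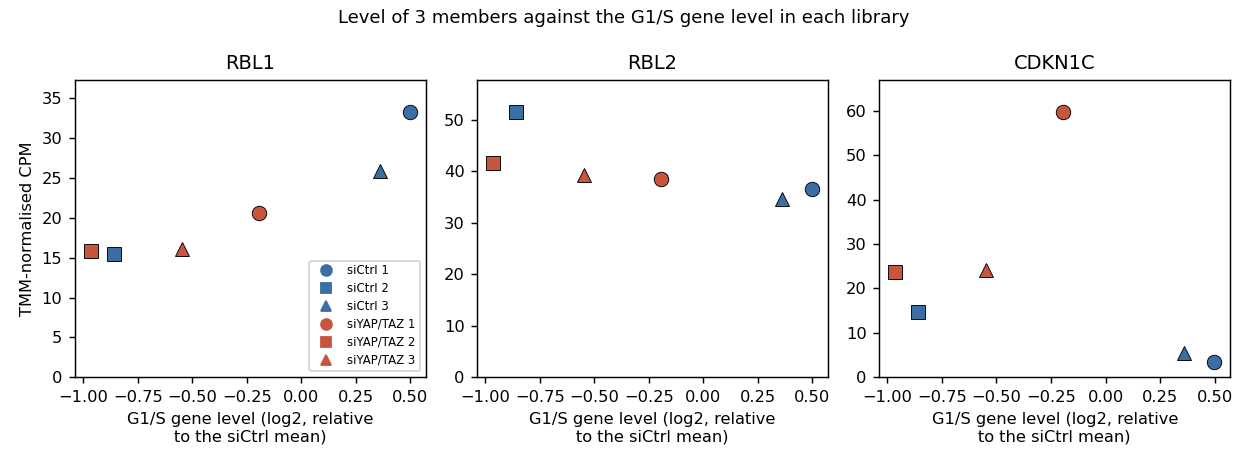
TMM-normalised CPM of RBL1, RBL2 and CDKN1C against the mean log2 level of 19 E2F-controlled G1/S genes relative to the siCtrl mean; each point is 1 library, with colours for the group and symbol shapes for the replicate. RBL1 is low where the G1/S level is low, and siCtrl replicate 2, at -0.86, lies among the siYAP/TAZ libraries.

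Among the binding partners of the members, CCND3 was called and the rest were not. Of 25 CDK, cyclin, E2F and MuvB genes, 21 were tested, with a median log2 fold change of -0.21. Of these 1 passed as higher and 0 as lower, beside 0.743% and 1.22% of all genes tested. CCND3 encodes a D-type cyclin that activates CDK4 and CDK6, and its counts were 354, 479 and 446 in the siCtrl libraries against 809, 730 and 802 after YAP/TAZ depletion. It rose from 120.5 ± 24.2 to 214 ± 29.2 CPM (SD, n = 3 each), by 0.83 on the log2 scale (SE 0.17, adjusted p = 0.0463). It was also called without siCtrl replicate 2, but 0 partners were called higher without any one of the other 5 libraries, with 1 at an unadjusted p under 0.05 each time. At an unadjusted p under 0.05, 5 partners were lower, beside 1160 of the 12510 genes tested. DESeq2 called 2 lower, beside 328 of 13231 genes. The replicate block gave 4 and the fit without siCtrl replicate 2 gave 6, beside 5.44% and 6.22% of all genes.

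The regulators upstream of the members gave 0 calls in either direction among 22 genes tested, with a median of 0.082. At an unadjusted p under 0.05, 2 were higher and 2 lower, beside 1051 and 1160 of the 12510 genes tested. DESeq2 called 1 in each direction, beside 250 higher and 328 lower of 13231 genes. CKS1B, the cofactor that lets SKP2 recognise p27, was at 168 ± 41.1 CPM in siCtrl and 85.3 ± 20.7 CPM in siYAP/TAZ (log2 fold change -0.97, SE 0.22, adjusted p = 0.0616). SKP2 itself was at 73.0 ± 11.4 and 49.0 ± 3.08 CPM (-0.57, SE 0.16, adjusted p = 0.0974). FOXO1, a transcription factor known to induce CDKN1B, was at 207 ± 98.9 and 394 ± 55.3 CPM (0.93, SE 0.29, adjusted p = 0.139). These were the genes of the list whose groups did not overlap, 1 higher and 2 lower of 22, beside 11.0% and 11.1% of all genes. With the replicate block 2 regulators were called higher and 2 lower, beside 4.66% and 5.44% of all genes. Without siCtrl replicate 2 the counts were 2 and 4, beside 6.08% and 6.22%. Without siYAP/TAZ replicate 1 they were 0 and 1, beside 62 and 110 over all genes.

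Genes that the pocket proteins are known to hold silent had mostly negative log2 fold changes after depletion, with 0 of the G1/S set and 10 of the G2/M set called. Of 20 E2F-controlled G1/S genes, all tested, 18 had a negative log2 fold change, the median was -0.72, and 0 were called. At an unadjusted p under 0.05, 5 were lower, beside 1160 of the 12510 genes tested. MCM7, a helicase subunit, was at 47.2 ± 12.9 CPM in siCtrl and 24.8 ± 1.93 CPM in siYAP/TAZ (-0.93, SE 0.22, adjusted p = 0.0680). RRM1, of ribonucleotide reductase, was at 351 ± 67.6 and 204 ± 34.8 CPM (-0.78, SE 0.18, adjusted p = 0.0681). CDC45, a part of the active helicase, was at 10.9 ± 4.26 and 4.52 ± 2.83 CPM (-1.23, SE 0.46, adjusted p = 0.213). DESeq2 called 2 lower, beside 328 of 13231 genes. The fit with the replicate block called 6 and the fit without siCtrl replicate 2 13, beside 5.44% and 6.22% of all genes. That library had been set apart by its replication genes, so the last count is no separate support.

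Of 16 DREAM-controlled G2/M genes, all tested, 16 had a negative log2 fold change with a median of -1.01. Of these 10 were called lower, beside 1.22% of all genes tested. The list was drawn up with earlier results of these data known. Those with the smallest p were CDC25C, a phosphatase that activates CDK1 (-1.62, SE 0.22, adjusted p = 0.0107), the kinesin KIF20A (-1.07, adjusted p = 0.0138) and the kinetochore protein CENPF (-1.06, adjusted p = 0.0138). The ubiquitin-conjugating enzyme UBE2C (-1.01), the checkpoint kinase BUB1 (-1.31), the topoisomerase TOP2A (-0.85) and the mitotic cyclins CCNB1 (-0.89) and CCNB2 (-0.79) also fell, with adjusted p from 0.0157 to 0.0432. The list level was 0.089, -0.19 and 0.099 in siCtrl against -0.71, -1.28 and -1.12 in siYAP/TAZ, so here siCtrl replicate 2 stayed with its group. Omitting siCtrl replicate 1 left 3 calls and omitting siYAP/TAZ replicate 2 left 1. Omitting siCtrl replicate 3 or siYAP/TAZ replicate 3 left 0. In each of these fits 16 were lower at an unadjusted p under 0.05, beside 707 to 905 of all genes. With the replicate block or without siCtrl replicate 2 the number called was 16, beside 5.44% and 6.22% of all genes. E2F words were present in 11 of the 17 G1/S genes with a window (64.7%) and CHR words in 8 of the 12 G2/M genes (66.7%), in lists that had been drawn up from known targets of these elements.

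The p53 targets other than CDKN1A were described to place that member. Of 20 genes, 19 were tested, 12 had a positive log2 fold change, the median was 0.13, and 0 were called by edgeR or by DESeq2. At an unadjusted p under 0.05, 2 were higher, beside 8.40% of all genes. TP53INP1, an autophagy and stress protein, was at 7.47 ± 1.33 and 13.03 ± 0.46 CPM (0.81, SE 0.25, adjusted p = 0.133). CCNG1 gave 0.47 (SE 0.19, adjusted p = 0.239) and TP53I3 0.40 (SE 0.19, adjusted p = 0.312). Without siCtrl replicate 2, 5 were called higher, and with the replicate block 1, beside 6.08% and 4.66% of all genes. The library left out had the highest level of this list, so the 5 calls are no separate support. The list level correlated over the 6 libraries with CDKN1A (r = 0.686), CDKN1B (0.866), CDKN1C (0.736) and RBL2 (0.784), and with opposite sign with RBL1 (-0.902), as a description.

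For 1 member of each class, that with the smallest p, the genes with the most similar profile were found by Pearson's r of log2 CPM over the 6 libraries. These are the highest values in a search of all genes tested over 6 points, so a high r is partly a product of the search. Whether the likeness is real was not tested. For CDKN1C they were COX6A1 (r = 0.99972), DPP7 (0.987) and LYPLAL1 (0.986), whose log2 fold changes of 0.34, 0.66 and 0.31 were smaller than its own. For CDKN2D they were CERK (0.992), PLEKHO1 (0.978) and DYNLT4 (0.977). For RBL1 they were EIF4G1 (0.998), HNRNPR (0.995) and MRPL3 (0.994). None of these 9 genes passed the test, with adjusted p from 0.232 for COX6A1 to 0.928 for CERK.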

How the data were processed

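RNA of 6 MCF10A samples was profiled with a QuantSeq 3′ mRNA-Seq FWD kit. The authors deposited raw counts per Entrez gene, made per the labels with cutadapt 4.2, Bowtie2 2.3.5.1 and build hg19; gene annotation and use of strand for these libraries are not given in the sources used here. The study's methods describe biological replicates, and the labels do not say how they were separated. Symbols came from RefSeq (GRCh38.p14, names only; 23308 of 23459 IDs matched) and coordinates from GENCODE 44 lifted to GRCh37. Groups followed the column names.

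Counts were tested with edgeR 4.0.16 (R 4.3.3): filterByExpr, TMM, quasi-likelihood F test with group as the only term, Benjamini-Hochberg adjustment over 12510 genes, threshold 0.05. Standard errors were derived from the fold change and its F statistic, and 95% intervals from the quasi-likelihood degrees of freedom. A count of 0 allows 3 counts, 0.68 to 0.992 CPM by library, for counting error only. No libraries were identical, and chi-square per degree of freedom was 5.37 to 17.4 within groups and 8.57 to 25.6 between them. Same-numbered libraries deviated together across genes (r = 0.416, 0.345 and 0.129), so the numbers were taken to pair them. The reported fit does not model this pairing, and the fit with the replicate block does. Alternatives were DESeq2 1.42.0, RLE scaling, no filter, the replicate block, the groups of the titles, and libraries left out; subtraction of LPAR6 counts was chosen after seeing the data. The fit was tested on simulated data. The level of the G1/S list was taken over 19 of its 20 genes, and 1 gene is not reported here. The members and gene lists were chosen with earlier results of these data known. Named genes were all members, up to 8 called genes per list or else the 3 with the smallest unadjusted p, all neighbours on chromosome 9, the 3 most similar genes for 1 member per class, and YAP1 and WWTR1.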

Additional observations from a re-analysis of the deposited data

How the results depend on the processing

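Called lower and higher were 152 and 93 genes as reported, 328 and 250 with DESeq2, 299 and 257 without the low-count filter, 680 and 583 with the replicate block, 591 and 592 without both libraries whose titles conflict, and 0 and 0 with the groups of the titles. Leaving out 1 library gave 10 to 798 lower and 6 to 781 higher. RLE scaling moved no count by over 1.5 times.

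Among the members, 1 was called higher (CDKN1C) with DESeq2, without the filter, with the replicate block and without both conflicting libraries, and leaving out 1 library gave 0 to 1 higher and 0 to 1 lower. For the partners 2 were lower with DESeq2, 2 without the filter, 4 with the block and 4 without both libraries, 0 to 6 with 1 library left out, and 0 were higher with the titles (0 at an unadjusted p under 0.05), 0 to 1 with 1 library left out. For the upstream regulators the lower and higher counts were 1 and 1 with DESeq2, 1 and 1 without the filter, 2 and 2 with the block, 3 and 2 without both libraries, and 0 to 4 and 0 to 2 with 1 library left out. G1/S genes called lower were 2 with DESeq2, 2 without the filter, 6 with the block, 9 without both libraries and 0 to 13 with 1 library left out. G2/M genes called lower were 16 with the block, 0 with the titles (0 at an unadjusted p under 0.05) and 0 to 16 with 1 library left out. The p53 targets called higher were 1 with the block, 2 without both libraries and 0 to 5 with 1 library left out. Of the chromosome 9 genes 1 was lower with DESeq2, without the filter, with the block and without both libraries, and 0 to 1 with 1 library left out. With the groups of the titles, the difference in class share was -4.74 points for CDKN1A against -15.3 as reported, 10.1 against 18.2 for CDKN1C and 0.501 against 2.58 for RB1.

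Direction was unstable for members near 0. CDKN1A, at 0.025 as reported, was at 0.56 with the titles (adjusted p = 0.898) and 0.44 without both libraries (adjusted p = 0.226), and CDKN1B at 0.44 and 0.58 (adjusted p = 0.898 and 0.0762). RBL2 turned to a log2 fold change of 0.20 with the titles and 0.13 without both libraries. Leaving out 1 library gave -0.21 to 0.28 for CDKN1A, -0.25 to 0.26 for CDKN2C, -0.43 to 0.044 for CDKN2D, -0.042 to 0.032 for RB1 and -0.15 to 0.16 for RBL2. CDKN1B (0.24 to 0.47), CDKN1C (1.61 to 3.00) and RBL1 (-0.74 to -0.24) kept their sign. The block changed the call of CDKN1C and of no other member. The causes were not tested. CDKN2C and CDKN2D had at most 61 counts a library.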

Other observations

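Genes within 200 kb of CDKN1C, looked up after the values were seen, had smaller fitted log2 fold changes where they were tested. PHLDA2 is an imprinted growth inhibitor of the same cluster, and its counts were 957, 395 and 834 in the siCtrl libraries against 782, 678 and 481 after YAP/TAZ depletion (log2 fold change -0.19, adjusted p = 0.776 by edgeR). NAP1L4 was at -0.14 (adjusted p = 0.697) and CARS1 at -0.0028 (adjusted p = 0.996). KCNQ1 counts were 194, 302 and 186 in the siCtrl libraries against 494, 181 and 196 after YAP/TAZ depletion, and KCNQ1OT1, the antisense RNA inside it, had 191, 299 and 181 against 484, 177 and 191. These near-equal counts of a gene and its antisense partner leave both uncertain, and overlapping opposite-strand genes of the members carry the same uncertainty. Their log2 fold changes were 0.21 (adjusted p = 0.779) and 0.20 (adjusted p = 0.791). In siYAP/TAZ replicate 1, the library with the most CDKN1C counts, KCNQ1 was also at its highest. PECAM1, the endothelial marker with most of that list's difference, had 6, 4 and 4 counts in the siCtrl libraries against 14, 29 and 18 after YAP/TAZ depletion (2.10, SE 0.53, adjusted p = 0.0785). Like CDKN1C, and like 11.0% of all genes tested, it was higher in each siYAP/TAZ library than in each control. Its highest library was siYAP/TAZ replicate 2, and a relation between PECAM1 and CDKN1C was not tested.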
